A study of Drosophila melanogaster with 4 samples.

Results

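The 10 genes described here belong to the heat shock response and were followed in the translatome of the *Drosophila* ovary: the small heat shock protein genes Hsp22, Hsp23, Hsp26, Hsp27 and Hsp67Bc, the Hsp70 family genes Hsp68 and Hsc70-4, the Hsp90 gene Hsp83, the mitochondrial chaperonin gene Hsp60A, and Hsf, which encodes the heat shock transcription factor. These members were chosen by symbol among the 17490 genes of the deposited table, and all 10 are listed in it. Translating ribosome affinity purification (TRAP) recovers, with anti-GFP antibodies, ribosomes that carry a GFP-tagged RPL10a together with the mRNAs bound to them. In the soma group the tag was expressed from a UAS transgene under tj:Gal4, a driver of the somatic follicle cell lineage. In the germline group it was expressed under Nos:Gal4Vp16, a driver of the germ cells. Both groups carry the same tagged ribosomal protein, and extracts were made from pooled whole ovaries that hold soma and germline, so the Gal4 driver differs together with the cell type, and fewer cells of a type cannot be told apart from less RNA per cell. Each group has 2 libraries, which the study calls biological replicates without saying how the material of each was kept apart. The SEs and p-values rest on the spread between these samples, moderated toward that of other genes of like level. The study lists a rearing temperature and no heat shock for these genotypes, and the age of the females is not given in the sources used here.

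Heat shock proteins are molecular chaperones. Small heat shock proteins hold unfolding proteins without using ATP. Hsp70 proteins and the cognates (Hsc70, expressed without stress) fold them in cycles of ATP hydrolysis, Hsp90 completes the folding of kinases and receptors, and chaperonins enclose single proteins in a chamber. Upon heat stress, Hsf forms trimers that bind heat shock elements and switch on the inducible genes. The ovary is a known exception to this rule, since nurse cells, the germline cells that feed the oocyte, accumulate Hsp26, Hsp27 and Hsp83 mRNA during normal oogenesis and pass it to the egg.

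Values are FPKM (fragments per kilobase of exon, with 1 scaling factor per library), which allow levels to be compared between genes. The reads behind them were recovered as whole numbers for 95.9% of the genes above 0. The scaling did not follow the recovered reads. In soma replicate 1, with 17556964 recovered reads, 1 read on 1 kb was worth 0.0233 FPKM. In soma replicate 2, with 2172029 recovered reads, it was worth 0.811 FPKM. On genes other than rRNA, soma replicate 1 was the deepest library with 16675983 reads, soma replicate 2 the shallowest with 615390 reads, and the germline libraries had 1164462 and 1283288 reads. Of the markers listed for each cell type, 7 of 9 follicle cell genes were called higher and 4 of 9 germ cell genes lower in soma with limma (adjusted p under 0.05). The summed level of the follicle cell markers was 4358 and 4311 FPKM in soma and 536 and 352 FPKM in germline. That of the germ cell markers was 182 and 141 FPKM in soma and 375 and 442 FPKM in germline. The soma libraries thus held germ cell markers at a median of 38.1% of their germline level, with a range of 27.8% to 83.7%. Of these checks, tj had 46.8 and 43.9 FPKM in soma and 2.63 and 3.95 FPKM in germline, AGO3 had 4.94 and 5.86 FPKM in soma and 18.6 and 18.9 FPKM in germline, and aub had 11.2 and 15.3 FPKM in soma and 43.6 and 33.2 FPKM in germline. The 6 hemocyte markers summed to 41.0 and 44.5 FPKM in soma and 1.74 and 3.89 FPKM in germline. Nearly all of it came from srp (40.9 and 44.4 FPKM in soma, 1.68 and 3.89 FPKM in germline), which was called higher (limma adjusted p = 0.0038). The others were at or near 0. NimC1 and He are at 0 in the 4 libraries, and Pxn had at most 0.136 FPKM. Hml and eater had 0.0218 and 0.0212 FPKM in soma replicate 1 and none elsewhere. The 7 fat body markers summed to 0.913 and 2.41 FPKM in soma and 0.405 and 0.703 FPKM in germline, mostly from apolpp, with Lsp2, Fbp1 and Lsp1alpha at 0 in the 4 libraries. The part of these cells in the members' values was not tested.

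Together, the members held a larger share of the reads outside rRNA in both germline libraries than in both soma libraries. They held 0.996% of the reads outside rRNA in soma replicate 1, with bounds of 0.992 and 1.00, and 1.15% in soma replicate 2, with bounds of 1.13 and 1.18. In germline replicate 1 they held 2.60%, with bounds of 2.58 and 2.63, and in germline replicate 2 they held 2.38%, with bounds of 2.36 and 2.41. These 95% Wilson intervals cover counting error only. Among the members, Hsc70-4 and Hsp83 held the most of these reads in every library, and neither was called between the groups. Lower soma values are common on a like scale. With FPKM rescaled to the total of genes other than rRNA, the median log2 fold change (soma over germline) of all genes tested was -0.44.

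In both groups the members fell into the same broad order. Hsc70-4 was the highest, followed by Hsp83, Hsp26, Hsp27 and Hsp60A. In the germline, the ranges of the 2 libraries did not overlap between any neighbours from Hsc70-4 down to Hsp67Bc. In the soma they overlapped between Hsp26 and Hsp27, between Hsf and Hsp68, and between Hsp68 and Hsp23. The span was wide: mean levels ran from 1007 FPKM for Hsc70-4 to 1.52 FPKM for Hsp67Bc in soma, and from 1635 FPKM to 0.14 FPKM for the same genes in germline.

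**Figure D1:**
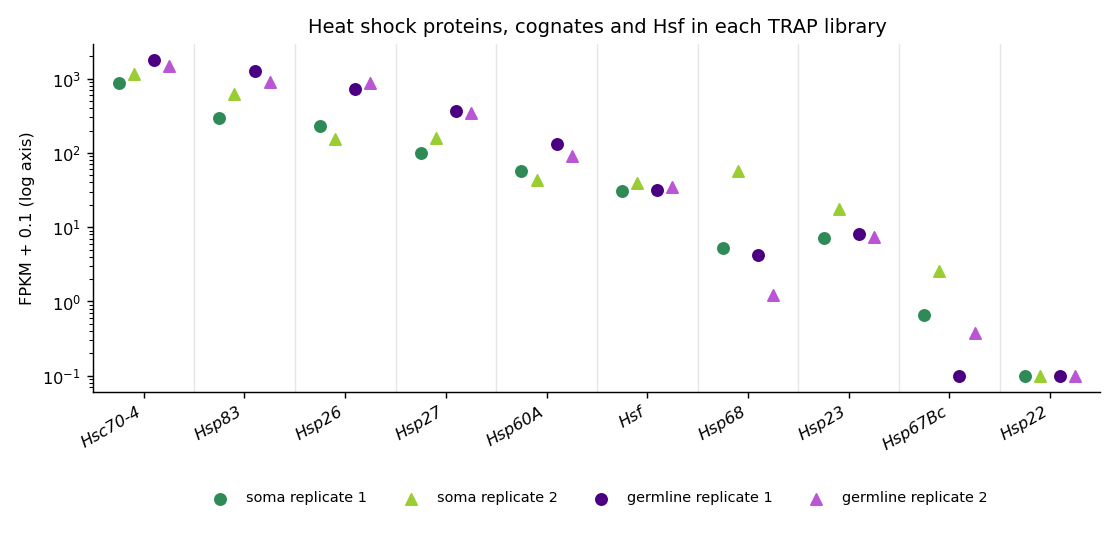
FPKM + 0.1 on a log axis for the 10 members, with 1 point per library (soma in greens, germline in purples, circles for replicate 1, triangles for replicate 2). The 5 most abundant members lie lower in both soma libraries than in both germline libraries, Hsf is level, Hsp68 stands at 56.7 FPKM in soma replicate 2 alone, and Hsp22 is at 0 throughout.

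Soma and germline were compared with limma on log2(FPKM + 0.1), over 8823 genes that averaged 0.1 FPKM or more, and a gene was called at a Benjamini-Hochberg adjusted p under 0.05. Hsp22 did not pass the filter, which left 9 members. Of these, 2 were called lower in soma, Hsp26 and Hsp27, and none was called higher. Over all genes tested, 3.59% were called lower and 8.64% higher, 12.2% in either direction. At an unadjusted p under 0.05, 3 members were lower (Hsp26, Hsp27 and Hsp60A) and 1 was higher (Hsp68), against 11% and 16.8% of all genes. The median log2 fold change of the 9 members was -0.71, against 0.04 for all genes tested.

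The called members were both small heat shock proteins. Hsp26 (FBgn0001225), a cytosolic small heat shock protein, had 232 and 154 FPKM in soma, against 725 and 861 FPKM in germline. The higher soma library lay well under the lower germline library. Its mean was 193 ± 55.1 FPKM in soma and 793 ± 96.5 FPKM in germline (SD, n = 2 each), so that the soma level was 24.3% of the germline level. On the log2 scale the difference was -2.06 ± 0.42 (SE), with an adjusted p of 0.026 by limma. The 24.3% lies below the lowest percentage among the 9 germ cell markers, 27.8%, but the SEs of the 2 genes overlap. That marker had a log2 fold change of -1.88 ± 0.62 (SE). The order also depended on soma replicate 2, without which the log2 fold change was -1.77 for Hsp26 and -1.90 for AGO3. Behind the values stood 10062 and 192 reads in soma and 2152 and 3155 reads in germline.

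Hsp27 (FBgn0001226), a small heat shock protein known from both cytoplasm and nucleus, had 98.4 and 160 FPKM in soma, against 363 and 346 FPKM in germline. The groups did not overlap, and the soma mean was 36.4% of the germline mean. On the log2 scale the difference was -1.50 ± 0.36 (SE), with an adjusted p of 0.044 by limma. For both genes the direction was kept in all 14 alternatives. With any 1 library left out, neither was called. A group then rests on 1 library, and almost no gene tested was called lower. Without the variance trend, too, neither passed (limma adjusted p of 0.075 for Hsp26 and 0.14 for Hsp27), and Hsp27 also missed the threshold at a pseudocount of 0.01 and with all genes above 0 (0.057 and 0.065). Leaving out soma replicate 2 gave log2 fold changes of -1.77 for Hsp26 and -1.85 for Hsp27, and leaving out soma replicate 1 gave -2.36 for Hsp26 and -1.15 for Hsp27.

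Hsp23 (FBgn0001224), a neighbour of both on the chromosome, had another pattern. It had 6.96 and 17.4 FPKM in soma, against 8.08 and 7.18 FPKM in germline. The germline values lay between the soma values, and Hsp23 was far below Hsp26 and Hsp27 in every library. Its log2 fold change of 0.53 ± 0.49 (SE, adjusted p = 0.53 by limma) turned to -0.13 without soma replicate 2 and to -0.026 with limma-voom on the recovered reads. The soma value of replicate 2 rests on 19 reads, that of replicate 1 on 264 reads.

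Hsp67Bc (FBgn0001229), which assists autophagy of misfolded proteins in fly cells, was close to the limit of detection. It had 24 and 3 reads in soma, worth 0.567 and 2.47 FPKM, and 0 and 1 reads in germline, worth 0 and 0.279 FPKM. In the germline libraries, 3 reads would have been worth 1.03 and 0.838 FPKM, which lies between the levels of the soma libraries, and the 3 reads of soma replicate 2 are themselves at this limit. The fitted log2 fold change of 2.75 ± 1.25 (SE, adjusted p = 0.21 by limma) depended on the pseudocount, with 1.04 at 1 FPKM and 4.47 at 0.01 FPKM.

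Hsp22 (FBgn0001223), a mitochondrial small heat shock protein in flies, is listed at 0 in all 4 libraries. All 1900 of its exon bases lie inside the exons of CG4456 on the same strand, a gene also known as Hsp67Bb, which is at 0 in the 4 libraries as well. In the table, 284 of 290 coding genes placed wholly within another coding gene on the same strand are at 0 in the 4 libraries (97.9%), against 3997 of 13390 other coding genes (29.9%). How the authors' counting treated reads shared by 2 genes is not given in the sources used here, and its part in this 0 was not tested. The 0 therefore gives no level for Hsp22.

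These 5 small heat shock genes lie within 14.2 kb of chromosome 3L, from 9371511 to 9385694 in BDGP6 (dm6) coordinates. Hsp67Bc (9371511 to 9372497) and Hsp26 (9376418 to 9377427) are on the minus strand. Hsp22 (9372931 to 9374964), Hsp23 (9381882 to 9382765) and Hsp27 (9384063 to 9385694) are on the plus strand. Apart from Hsp22, each is annotated with a single uninterrupted exon block. Proximity did not go with a common level. Hsp26 and Hsp27 were at 346 FPKM or more in both germline libraries, while Hsp67Ba, a small heat shock gene placed between Hsp26 and Hsp23, is at 0 throughout, and CG4461, another one next to Hsp26, had 11 reads in soma replicate 1 and none elsewhere. The last 49 bases of Hsp27 overlap CR43483, a pseudogene on the opposite strand, and whether the counting used strand is not given in the sources used here.

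**Figure D2:**
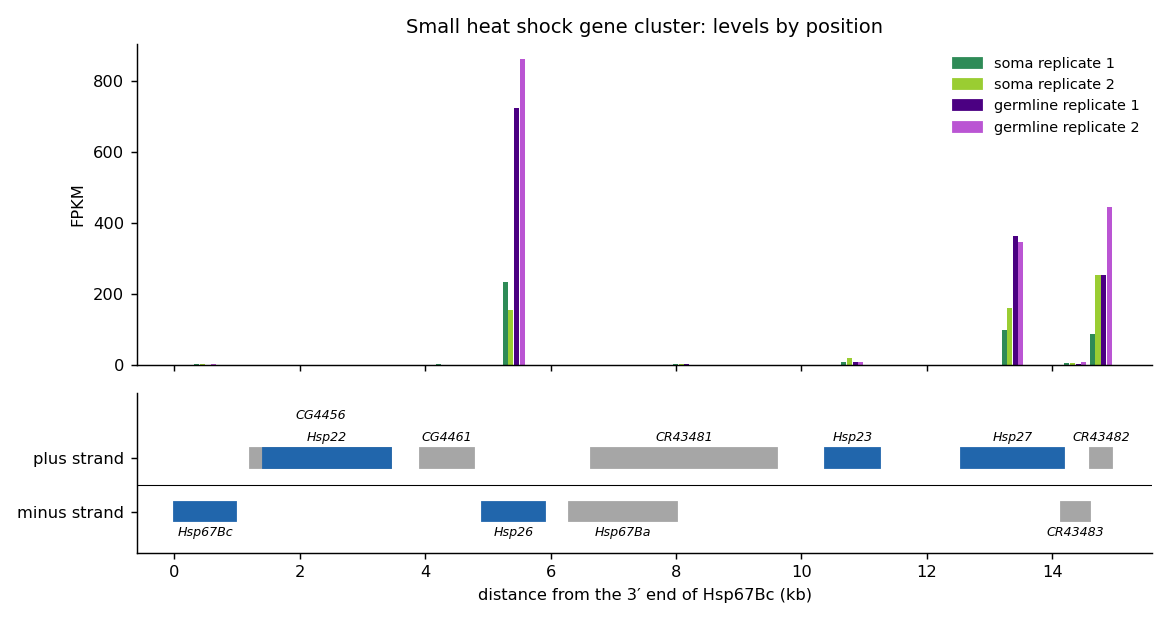
FPKM of each gene of the small heat shock cluster in the 4 libraries (upper panel, linear axis) above the position of the genes by strand (lower panel, distance in kb from the 3′ end of Hsp67Bc, members in blue, other genes in grey; CG4456 extends beyond Hsp22). Hsp26 and Hsp27 stand out, with germline bars of 725 and 861 FPKM and of 363 and 346 FPKM, while the genes between them are at most at 17.4 FPKM, and CR43482, next to Hsp27, has the remaining high bars.

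Of the other small heat shock genes, l(2)efl and CG13133 are also at 0 in the 4 libraries, and CG7409 had 6 reads in soma replicate 1 alone. CG14207 was the 1 gene of this list that passed the filter. It had 18.2 and 37.3 FPKM in soma and 17.6 and 21.7 FPKM in germline (log2 fold change 0.41 ± 0.39 SE, adjusted p = 0.54 by limma), and its sign turned without soma replicate 2 (-0.11) and with rescaling to the total of genes other than rRNA (-0.10). By FPKM, Hsp26 and Hsp27 were above every other small heat shock gene measured in each of the 4 libraries.

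Hsp83 (FBgn0001233), the only cytosolic Hsp90 of the fly, lies on chromosome 3L from 3192969 to 3197059 and has 2 exon blocks, with 15 bases shared with CG14966 on the opposite strand. It had 298 and 621 FPKM in soma, against 1246 and 893 FPKM in germline. The groups did not overlap, but the replicates differed widely within each of them. The mean was 459 ± 228 FPKM in soma and 1070 ± 250 FPKM in germline (SD, n = 2 each), with the soma mean at 43.0% of the germline mean. The log2 fold change of -1.29 ± 0.58 (SE, adjusted p = 0.21 by limma) was not called. Quantile normalization (limma adjusted p = 0.015) and rescaling to the total of genes other than rRNA (limma adjusted p = 0.043) brought it past the threshold, where these settings move the median of all genes to -0.17 and -0.44 on the log2 scale.

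Hsc70-4 (FBgn0266599), the major constitutive Hsp70 of the cytosol, which also uncoats clathrin vesicles, lies on chromosome 3R from 15242687 to 15246614. It was among the most abundant of the 17490 genes, rRNA genes included, with rank 31 and 52 in soma and rank 17 and 14 in germline. It had 863 and 1151 FPKM in soma, against 1791 and 1479 FPKM in germline. Its soma mean was 61.6% of its germline mean, and the log2 fold change of -0.71 ± 0.70 (SE, adjusted p = 0.55 by limma) was not called here or in any of the 14 alternatives. The SE depended on the variance trend, and without the trend it was 0.36 (limma adjusted p = 0.34). As a share of the reads outside rRNA, Hsc70-4 took 0.603% and 0.627% in soma and 1.23% and 1.14% in germline.

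Hsp60A (FBgn0015245), the chaperonin of the mitochondrial matrix, lies on chromosome X from 11108482 to 11112308. It had 57.7 and 43.2 FPKM in soma, against 133 and 90.7 FPKM in germline, with no overlap. The soma mean was 45.1% of the germline mean. The log2 fold change of -1.14 ± 0.31 (SE, adjusted p = 0.063 by limma) was just outside the threshold and was called in 3 of the 14 alternatives.

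In all, 5 members had both soma libraries below both germline libraries (Hsp26, Hsp27, Hsp83, Hsc70-4 and Hsp60A), and 2 had both above (Hsp68 and Hsp67Bc). Over all genes tested, 25.8% had the first order and 29.6% the second. The soma means of the 5 lower members were 24.3% to 61.6% of their germline means, beside the 27.8% to 83.7% of the germ cell markers in the same libraries. The part that germ cell RNA in the soma immunoprecipitates has in these levels was not tested.

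Hsf (FBgn0001222), the transcription factor of the response, lies on chromosome 2R from 18130303 to 18134634 and has 8 exon blocks, the most of the 10 members. It had 30.2 and 38.7 FPKM in soma, against 31.5 and 34.5 FPKM in germline. All 4 values lie close together, the soma values on either side of the germline values. Its log2 fold change of 0.05 ± 0.27 (SE, adjusted p = 0.92 by limma) was not called, and the sign turned with quantile normalization, with rescaling to the total of genes other than rRNA and without soma replicate 2 or germline replicate 1.

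**Figure D3:**
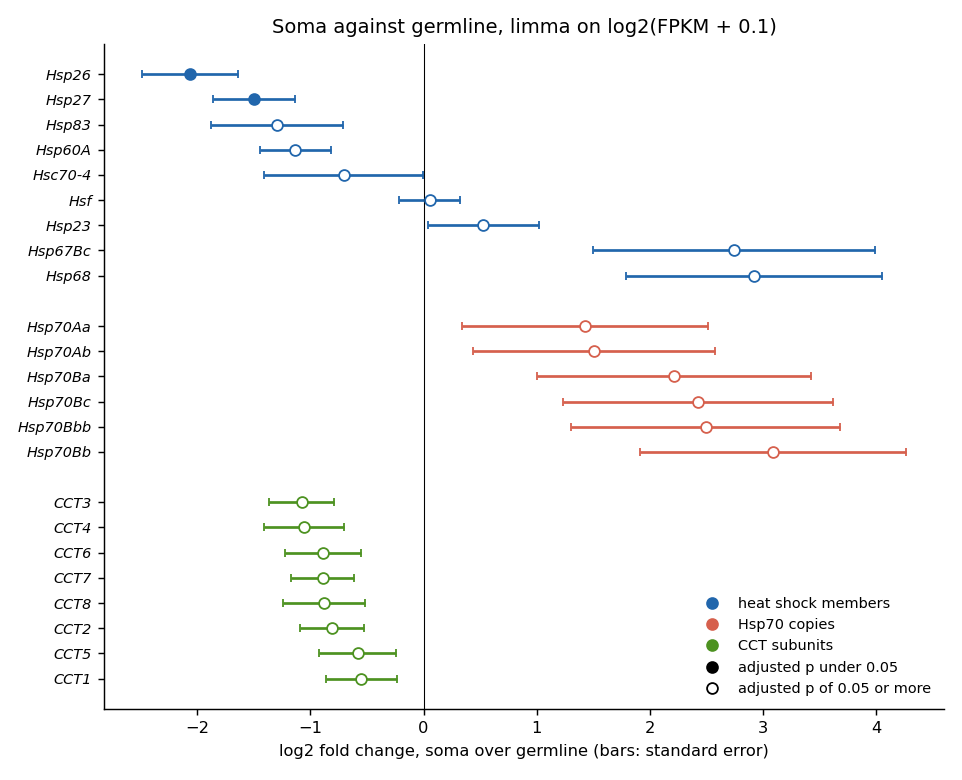
Log2 fold changes, soma over germline, with standard errors, for the 9 members tested (blue), the 6 Hsp70 copies (red) and the 8 subunits of the CCT chaperonin (green). Filled points, Hsp26 and Hsp27, have a limma adjusted p under 0.05. The 8 CCT points lie between -1.08 and -0.55, and the bars of the Hsp70 copies and Hsp68 are the widest besides that of Hsp67Bc.

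Hsp68 (FBgn0001230) is a stress-inducible member of the Hsp70 family, on chromosome 3R from 24055080 to 24057310. It had 5.08 and 56.7 FPKM in soma, against 4.12 and 1.11 FPKM in germline. A single library, soma replicate 2, was far above the others. The log2 fold change of 2.92 ± 1.13 (SE, adjusted p = 0.15 by limma) was not called, and it was 1.19 when soma replicate 2 was left out and 4.65 when soma replicate 1 was left out. In soma replicate 2 the level was 11.2 times that in soma replicate 1, from 156 and 486 reads (exact 95% interval 9.27 to 13.4, counting error only). The last 13 bases of Hsp68 overlap genes on the opposite strand.

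The Hsp70 genes proper showed the same library. Hsp70Aa, Hsp70Ab, Hsp70Ba, Hsp70Bb, Hsp70Bbb and Hsp70Bc are nearly identical copies of the classic heat-inducible gene, so the share of reads that each received is uncertain, and their sum is the safer value. Summed, they had 101 and 1640 FPKM in soma, against 126 and 107 FPKM in germline. Soma replicate 2 was thus 16.2 times soma replicate 1, while soma replicate 1 lay slightly below both germline libraries. Each of the 6 copies was in soma replicate 2 at 14.1 to 19.9 times its level in soma replicate 1. The copies held 0.778% of the reads outside rRNA in soma replicate 2 (Wilson bounds 0.756 and 0.800) and 0.0616% in soma replicate 1, against 0.0755% and 0.0717% in germline. None of the 6 was called between the groups, with log2 fold changes of 1.42 to 3.09 and limma adjusted p-values of 0.14 to 0.45. Without soma replicate 2, the log2 fold changes were -0.52 for Hsp70Aa and -0.40 for Hsp70Ab, and up to 1.04 for the other copies. Leaving out soma replicate 1 gave 3.37 for Hsp70Aa and up to 5.14 for Hsp70Bb, and Hsp70Bc was then called (limma adjusted p = 0.019).

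**Figure D4:**
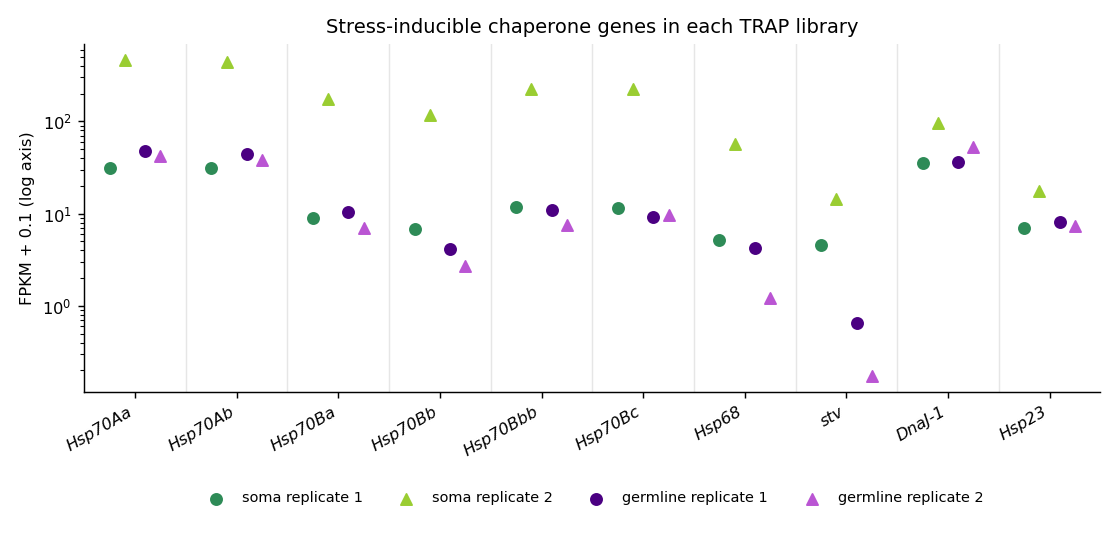
FPKM + 0.1 on a log axis for the 6 Hsp70 copies, Hsp68, stv, DnaJ-1 and Hsp23, with 1 point per library (soma in greens, germline in purples, circles for replicate 1, triangles for replicate 2). For every gene shown, soma replicate 2 is the highest point, and for the Hsp70 copies soma replicate 1 lies close to the germline points. The genes shown are a selection. Of the members left out, Hsf and Hsp67Bc were also highest in soma replicate 2. Hsc70-4, Hsp83, Hsp26, Hsp27 and Hsp60A were highest in a germline library, and Hsromega, also left out, in soma replicate 1.

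How far the members stood apart between replicates was described across all coding genes, a ranking added after these values were seen. Among 3423 coding genes that averaged 10 FPKM or more over the 4 libraries, the median ratio of soma replicate 2 to soma replicate 1 was 1.07, and 99% of the genes were under 3.47. The 6 Hsp70 copies held ranks 1 to 6 and Hsp68 rank 7. Hsp68, Hsp70Ba, Hsp70Bb and Hsp70Bbb reached this minimum only through soma replicate 2. With a minimum of 1 FPKM, where many genes rest on a few reads in soma replicate 2, Hsp68 held rank 33 and the Hsp70 copies ranks 20 to 30 of 6744. In soma replicate 2, Hsp83 was at 2.08 times its level in soma replicate 1 (rank 235 of 3423) and Hsp27 at 1.63 times (rank 550). Hsc70-4 was at 1.33 times (rank 995) and Hsf at 1.28 times (rank 1104). Hsp60A, at 0.748 times, and Hsp26, at 0.664 times, were lower in soma replicate 2 than in soma replicate 1, with ranks of 2789 and 2997. In germline, the ratio of replicate 2 to replicate 1 was 0.848 for the summed Hsp70 copies and 0.27 for Hsp68.

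**Figure D5:**
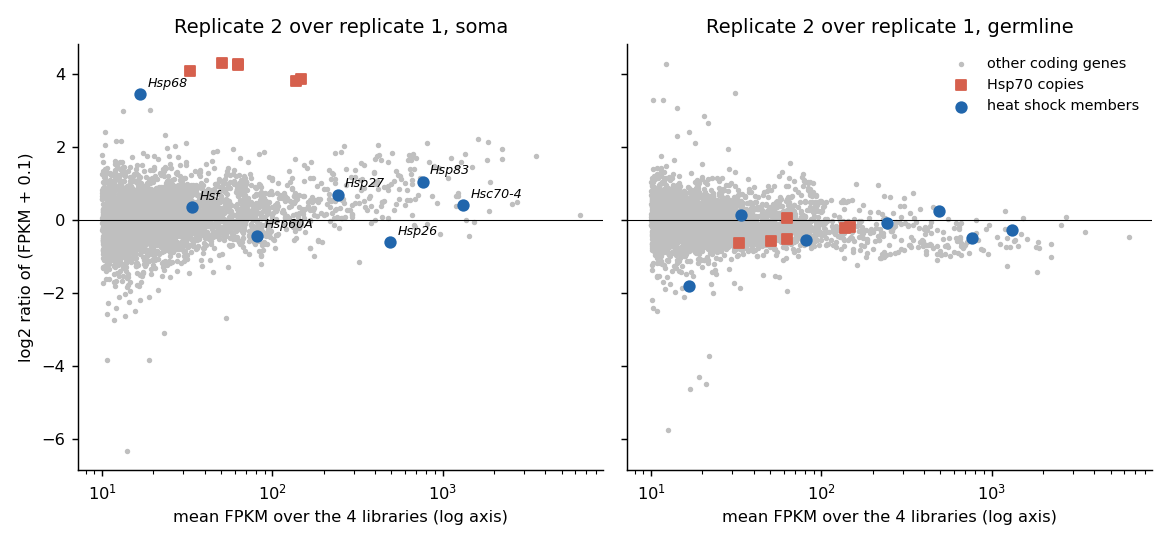
Log2 ratio of replicate 2 to replicate 1 against the mean FPKM (log axis) for 3423 coding genes, in soma (left) and germline (right), with the heat shock members in blue and the Hsp70 copies in red. In soma the Hsp70 copies and Hsp68 lie above all other genes shown, and in germline they lie within the cloud of points or, for Hsp68, below most of it. Hsp68, Hsp70Ba, Hsp70Bb and Hsp70Bbb reached the minimum of 10 FPKM only through soma replicate 2. With a minimum of 1 FPKM, the Hsp70 copies and Hsp68 held ranks 20 to 33.

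Other measures differed between the libraries as well. Soma replicate 2 had 71.7% of its recovered reads on rRNA genes and soma replicate 1 had 5.02%, against 61.9% and 52.4% in germline. Beside these shares, the summed Hsp70 copies had 101 and 1640 FPKM in soma, against 126 and 107 FPKM in germline. The 9 muscle sheath markers summed to 7.14 and 24.0 FPKM in soma, against 17.7 and 2.35 FPKM in germline, and all 9 were above 0 in at least 1 library of each group. The ratio of replicate 2 to replicate 1 was 3.36 in soma and 0.133 in germline for these markers. For the summed Hsp70 copies it was 16.2 in soma and 0.848 in germline. The part of rRNA content and of sheath cells in the Hsp70 and Hsp68 values was not tested.

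The partners of the members were taken from lists of chaperone genes by family. Among the other Hsp70 family genes, 11 of 11 were tested and none was called by limma, with 1 of them, Hsp70Bb, higher at an unadjusted p under 0.05. Hsc70-3, the Hsp70 of the endoplasmic reticulum, had 177 and 318 FPKM in soma and 181 and 158 FPKM in germline (log2 fold change 0.49 ± 0.39 SE, adjusted p = 0.46 by limma), and the sign turned, to -0.018, with rescaling to the total of genes other than rRNA. Hsc70-5, the Hsp70 of mitochondria, had 34.3 and 29.1 FPKM in soma and 43.0 and 46.7 FPKM in germline (log2 fold change -0.50 ± 0.26 SE, adjusted p = 0.26 by limma). Hsc70Cb, an Hsp110 that exchanges nucleotide on Hsp70, had 56.6 and 81.5 FPKM in soma and 138 and 92.6 FPKM in germline (log2 fold change -0.74 ± 0.33 SE, adjusted p = 0.21 by limma). Hsc70-1 and Hsc70-2 had at most 4 reads in any library.

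The CCT chaperonin, the cytosolic counterpart of Hsp60A that folds actin and tubulin, showed the same order as the abundant members. All 8 subunits had both soma libraries below both germline libraries, and their summed level was 772 and 823 FPKM in soma, against 1680 and 1233 FPKM in germline. Their log2 fold changes were -1.08 to -0.55 with a median of -0.89, and 6 of the 8 had an unadjusted p under 0.05. Over all genes tested, 25.8% had this order of libraries and 11% were lower at this unadjusted p. None of the 8 was called after adjustment with limma. Of all 60 listed genes other than the members, none was called lower, against 7 with quantile normalization and 7 with limma-voom. Hsp60B, Hsp60C and Hsp60D, relatives of Hsp60A, are at 0 in the 4 libraries.

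Of the 10 genes of the Hsp90 family and its partners, none was called by limma after adjustment, and 2 had a lower value in soma at an unadjusted p under 0.05, with a list median of -0.28 on the log2 scale. Of 17 J proteins and nucleotide exchange factors tested, 1 was called. This was stv (starvin, a BAG-domain cochaperone of Hsc70), higher in soma with 4.52 and 14.4 FPKM, against 0.556 and 0.075 FPKM in germline (log2 fold change 4.59 ± 0.97 SE, adjusted p = 0.028 by limma). It rests on 6 reads and 1 read in germline. With any 1 library left out, where a group rests on 1 library, stv was not called, and its log2 fold change was 3.6 to 5.5. DnaJ-1, an inducible Hsp40 singled out here after its values were seen, had 35.0 and 95.3 FPKM in soma and 36.2 and 52.2 FPKM in germline, and its log2 fold change of 0.41 ± 0.48 (SE, adjusted p = 0.62 by limma) turned to -0.31 without soma replicate 2 and to -0.10 with rescaling. Hsromega, the noncoding RNA of the heat shock response, had 5.05 and 4.52 FPKM in soma and 1.57 and 1.74 FPKM in germline (log2 fold change 1.48 ± 0.56 SE, adjusted p = 0.14 by limma), and it was called with limma-voom on the recovered reads (adjusted p = 0.0048). Its soma replicates did not part as those of Hsp68 and the Hsp70 copies did.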

How the data were processed

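The TRAP libraries from *Drosophila* ovaries, 2 of soma and 2 of germline, were grouped by their labels. Per the file headers the deposited values are FPKM, given for 17490 genes. Their decimal commas were read as points. The submitters' processing notes name cutadapt, FastQC, HISAT2, DESeq2 and the build dm6. The counting tool and the annotation are not given in the sources used here. Coordinates and exon lengths are those of the Ensembl release 115 annotation of BDGP6.54, which matched 17216 genes. FPKM multiplied by exon length and divided by 1 constant per library gave whole reads for 10084 of 10518 genes above 0 (tolerance 0.03 reads, or 1e-06 of the value).

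Soma was compared with germline by a linear model in limma 3.58.1 (R 4.3.3), with moderated variances that follow a trend, on log2(FPKM + 0.1). Genes averaging under 0.1 FPKM were left out, and no replicate block was used. On this scale the fold change of a low gene is understated. Other steps used Python 3.11.15, pandas 2.3.3 and scipy 1.17.1. In a simulated table of 8184 genes, drawn at the measured means and depths, 10-fold changes in 100 genes per direction were recovered for 100 soma and 99 germline genes, with 6 and 1 unchanged genes called. The changed genes averaged 1 FPKM or more, and the spread between replicates was the same for all genes (dispersion 0.1). The simulation therefore does not cover smaller changes, or genes whose replicates differ more. The alternatives were other pseudocounts and filters, median ratio scaling, quantile normalization, rescaling to genes other than rRNA, no trend, a replicate block, limma-voom on recovered reads and each library left out. The members and lists were chosen with earlier results of these data known. The genes named are the members, the other Hsp70 and small heat shock genes, CG4456 and Hsromega, up to 3 called genes per direction of each further chaperone list by size of change, and tj, AGO3 and aub. DnaJ-1, Hsp60B, Hsp60C, Hsp60D, GstD2, the hemocyte and fat body markers, CR43481, CR43482 and CR43483 fall outside this rule and were chosen after their values were seen. The listed genes br, vas and wupA were not analysed here. No sequence of the members is shown, since sequences were not used here.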

Additional observations from a re-analysis of the deposited data

How the results depend on the processing

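Over all genes, 762 were called higher and 317 lower in soma with limma. Rescaling to the total of genes other than rRNA left 274 and 127, and it moved the median log2 fold change of all genes to -0.44, against 0.04. Quantile normalization moved that median to -0.17. Median ratio scaling hardly changed the deposited values, with 764 genes called higher and 317 lower and a median of 0.04. Without a trend 451 and 37 were called. Limma-voom called 658 lower. Leaving out 1 library in turn, 0 to 564 genes were called higher and 0 to 11 lower, where the lone library of a group is assumed to vary like the others.

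Of the members, 2 were called lower and 0 higher. The lower count was 1 at a pseudocount of 0.01 and with all genes above 0, and 0 without a trend. It was 3 with rescaling, with a replicate block and with limma-voom, and 4 with quantile normalization. Of the other 60 listed genes (chaperones and their partners, CG4456 and the noncoding RNA Hsromega), 1 was called higher and 0 lower. The higher count was 0 at a pseudocount of 0.01, with all genes above 0, with rescaling and without a trend, 2 with limma-voom (stv and Hsromega), and 0 to 1 with 1 library left out. The lower count was 7 with quantile normalization and with limma-voom.

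The replicate numbers share no stated animal or batch, and the deviations of same-numbered libraries correlated at -0.07 across genes. With a replicate block, 968 genes were called higher and 581 lower. Of the members, 1 was called higher (Hsp68) and 3 lower (Hsp26, Hsp27 and Hsp60A). Among the other listed genes, 6 were called higher (stv, Hsp70Ab, Hsp70Ba, Hsp70Bb, Hsp70Bbb and Hsp70Bc) and 1 lower. The sign of Hsf was reversed with quantile normalization (-0.036) and rescaling (-0.45), that of Hsp23 with limma-voom (-0.026), and with rescaling those of Hsc70-3 (-0.018), CG14207 (-0.10) and DnaJ-1 (-0.10). With 1 library left out, log2 fold changes were -0.13 to 1.18 for Hsp23, -0.13 to 0.23 for Hsf, -0.52 to 3.37 for Hsp70Aa, -0.40 to 3.42 for Hsp70Ab, -0.11 to 0.93 for CG14207 and -0.31 to 1.13 for DnaJ-1. The cause of these changes was not tested. At 615390 reads outside rRNA, soma replicate 2 limits what can be said of members below about 3 reads.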

Other observations

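Downstream of Hsp27 lies CR43482, a pseudogene on chromosome 3L from 9386112 to 9386463 on the plus strand. It had 86.6 and 253 FPKM in soma, against 252 and 445 FPKM in germline, which is above Hsp27 in soma replicate 2 and germline replicate 2 and below it in the other libraries. CR43483, between them on the other strand, had 4.84 and 3.47 FPKM in soma and 0.729 and 6.50 FPKM in germline. CR43481, a noncoding RNA that overlaps Hsp67Ba on the opposite strand, had 0.345 and 0.28 FPKM in soma and 0.235 and 0.0951 FPKM in germline.

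Among coding genes that averaged 10 FPKM or more, the next in the ranking of soma replicate 2 over soma replicate 1 was GstD2. This glutathione S-transferase gene followed the Hsp70 copies and Hsp68, at 8.26 times. With a minimum of 1 FPKM the ranking differs.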
